A study of Mus musculus with 12 samples.

Results

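Thrombospondins and the SPOCK and SPARC proteins are secreted glycoproteins that sit in the matrix around cells and act on cells and enzymes there more than they bear load. The 8 genes described here are Thbs1, Thbs2, Thbs3, Thbs4, Spock1, Spock2, Spock3 and Sparc, found by symbol among the 55385 genes of the count tables, each with 1 row. The family was selected on the measured KO and Het counts of Thbs2 and Spock3, which were lower in Keap1 KO libraries, so the KO and Het values of these 2 genes are given as a description without a test, also between the sexes, and tests are kept for the other 6 members. All 8 passed the filter on low counts in every comparison.

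Bulk RNA came from satellite cells, the resident stem cells of skeletal muscle, isolated from hindlimb muscle of C57BL/6J mice and frozen at once. The groups were female Keap1 KO, female Keap1 Het, male Keap1 KO and male Keap1 Het, with 3 libraries each and 12 in all. The genotype word given for the control was read as heterozygous, so the controls also carry a changed Keap1 allele. Age, the kind of Keap1 allele and any driver of its deletion are not given in the sources used here. KEAP1 is the adaptor that presents the transcription factor NRF2 for degradation. The question put by the study was why the role of this pair in keeping or activating the stem cells differs between females and males.

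Total counts ran from 13042039 to 19273245 per library. Each sex has a count table of its own, so sex and table cannot be told apart. Library numbers were read as animal numbers, and nothing else says that the libraries came from separate animals, so p-values measure the spread between these libraries, which may be technical. Keap1 counts, summed over all exons, were 11.9 ± 0.922 CPM (fragment counts scaled to a fixed library size with composition factors) in female KO and 8.175 ± 1.213 CPM in female Het libraries (mean ± SD, n = 3, as for all CPM means here). The female KO values lay above the female Het values without overlap, opposite to a loss of transcript, at 1.45-fold and without passing (log2 interval 0.11 to 0.96, edgeR adjusted p = 0.186). In males Keap1 was 7.29 ± 0.797 CPM in KO and 7.79 ± 2.36 CPM in Het libraries and overlapped (edgeR adjusted p = 0.936). Since the deleted part of the gene is not given in the sources used here, these sums do not check the labels, and KO and Het are used as labelled. Nqo1, a quinone reductase and a known NRF2 target, averaged 91.7 ± 15.4 CPM in female KO and 4.39 ± 1.14 CPM in female Het libraries, and 33.9 ± 3.10 CPM in male KO and 3.46 ± 1.17 CPM in male Het libraries. The satellite cell genes Myf5 and Vcam1 lay between 879 and 1949 CPM and between 1243 and 2892 CPM over all libraries. Pax7 averaged 12.45 CPM in female KO, 12.91 in female Het, 16.2 in male KO and 22.2 in male Het libraries. Pdgfra, which defines fibro-adipogenic progenitors, lay between 1.77 and 4.71 CPM and Scx, which defines tendon cells, between 0 and 0.730 CPM. Dcn, also a fibro-adipogenic marker, averaged 300 CPM in female KO, 328 in female Het, 186 in male KO and 193.5 in male Het libraries. The fibro-adipogenic list summed to 3023 to 7413 CPM over all libraries, so the low Pdgfra values do not show that such cells were absent.

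As background, THBS1 and THBS2 are trimers that restrain blood vessel growth through receptors such as CD36 and CD47, and THBS1 can release active TGF-beta from its latent form. THBS3 and THBS4 form pentamers and are bound to collagen-rich matrix, THBS4 above all in tendon and muscle. The SPOCK proteins, also called testicans, are proteoglycans that share a calcium-binding domain with SPARC, and in work on the human proteins testican-1 and testican-3 hold back membrane-type metalloproteinases while testican-2 lifts that block. SPARC itself binds collagen and is made in quantity where matrix is laid down or remodelled.

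The windows of 250 bases before the annotated start are shown for Thbs2 and Spock3, which were lower in KO libraries of both sexes, and for Thbs3, which passed the test as lower in female KO libraries. They come from RefSeq on GRCm38.p6, which held 8 windows for 7 of the 8 members, and they run 5′ to 3′ on the strand of the gene. Capitals mark a match on either strand to TGACNNNGC, the core of the antioxidant response element that NRF2 binds, to TGANTCA (the AP-1 site), to CCAAT or to TATAAA. Overlapping matches were allowed.

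Thbs2 (chr17:14694263-14694512, minus strand): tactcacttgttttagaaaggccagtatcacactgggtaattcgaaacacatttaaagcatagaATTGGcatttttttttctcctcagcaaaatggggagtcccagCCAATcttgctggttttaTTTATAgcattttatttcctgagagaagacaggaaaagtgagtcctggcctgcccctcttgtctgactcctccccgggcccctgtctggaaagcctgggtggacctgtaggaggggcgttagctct
Spock3 (chr8:62950982-62951231, plus strand): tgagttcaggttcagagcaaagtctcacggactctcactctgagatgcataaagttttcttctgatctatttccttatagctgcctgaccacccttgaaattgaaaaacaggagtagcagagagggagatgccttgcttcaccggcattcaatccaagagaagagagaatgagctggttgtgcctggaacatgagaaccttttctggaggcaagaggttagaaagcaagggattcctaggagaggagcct
Thbs3 (chr3:89214930-89215179, plus strand): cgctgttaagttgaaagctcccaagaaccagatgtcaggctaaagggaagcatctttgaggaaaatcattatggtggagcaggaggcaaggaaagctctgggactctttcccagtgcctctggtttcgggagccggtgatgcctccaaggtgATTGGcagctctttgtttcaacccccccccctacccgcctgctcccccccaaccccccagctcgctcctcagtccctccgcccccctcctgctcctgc

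The Thbs2 window held 2 matches to CCAAT, with first bases at -186 and -144 from the start, and 1 match to TATAAA at -126. The Thbs3 window held 1 match to CCAAT at -98, and neither Spock3 window held any of the 4 motifs. The antioxidant response element core was in 0 of the 8 member windows and in 10.2% of 32851 windows of the same length over all genes. CCAAT was in 33.8% of all windows, TATAAA in 12.4% and TGANTCA in 6.75%, and among the members TGANTCA was in the Spock1 window. A match is a description of these letters and no evidence of binding.

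Thbs2 was the thrombospondin with the lowest values in KO libraries relative to Het (ENSMUSG00000023885, GRCm38 chromosome 17, 14665500 to 14694235). It stood at 46.8, 47.2 and 36.4 CPM in female KO libraries, against 223, 235 and 258 CPM in female Het libraries. Among male libraries it had 290, 231 and 306 CPM in KO libraries, against 516, 482 and 903 CPM in Het libraries. The groups did not overlap in either sex, and the male library Hetz249 lay far above the other two. Counts behind these values ran from 648 to 15915 per library. The fitted difference was 5.50-fold lower in female KO (log2 fold change -2.46 ± 0.153, SE) and 2.29-fold lower in male KO (-1.20 ± 0.227), and without male Hetz249 the male value was -0.86. In bulk RNA, fewer cells of a type and less RNA per cell cannot be told apart.

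Thbs1, the other trimeric member (ENSMUSG00000040152, chromosome 2, 118111876 to 118127133), was more abundant in females and had overlapping KO and Het values in both sexes. It stood at 375, 553 and 514 CPM in female KO libraries, against 472, 569 and 329 CPM in female Het libraries. Among male libraries it had 260, 156 and 298 CPM in KO libraries, against 128, 246 and 177 CPM in Het libraries. The log2 fold change was 0.07 in females, with a 95% interval of -0.38 to 0.52 (edgeR adjusted p = 0.893), and 0.38 in males, with an interval of -0.23 to 0.99 (edgeR adjusted p = 0.648).

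**Figure D1:**
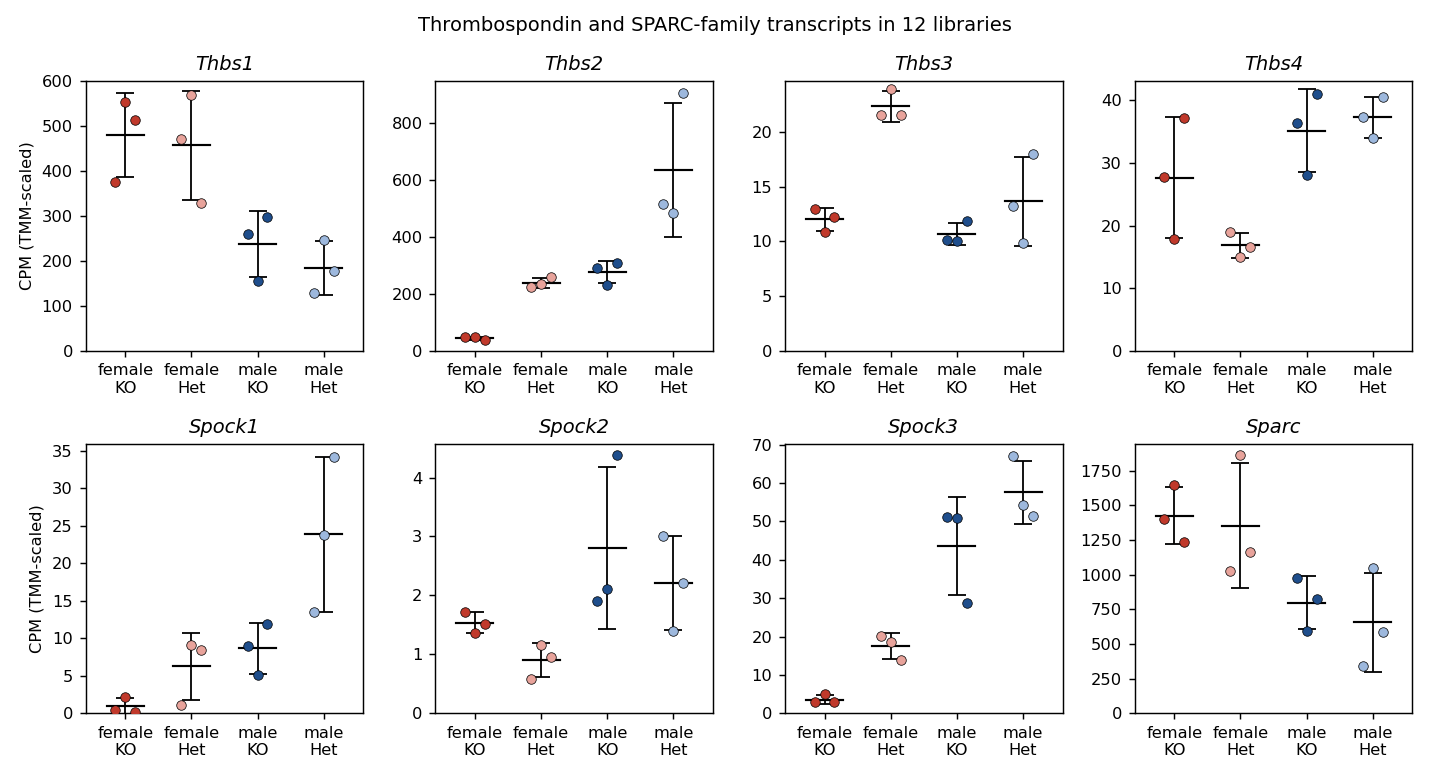
CPM of the 8 genes in each of the 12 libraries (points), with the mean (line) and SD (bars) of 3 libraries per group on linear axes that start at 0, where the SD bar of Spock1 in female KO is clipped. Thbs2 and Spock3 lie lowest in female KO, at 36.4 to 47.2 and 2.92 to 4.99 CPM, and all 3 KO libraries lie below the Het libraries in both sexes.

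Thbs3, a pentameric member (ENSMUSG00000028047, chromosome 3, 89215180 to 89226837), fell in female KO libraries. It stood at 12.97, 10.88 and 12.23 CPM in female KO libraries, against 21.6, 24.0 and 21.5 CPM in female Het libraries. These values did not overlap, and the fall was 1.86-fold (log2 fold change -0.90 ± 0.165, SE, edgeR adjusted p = 0.0118). The call was lost without female KO178 (adjusted p = 0.0732) or female KO188 (adjusted p = 0.06235), with DESeq2, limma voom and the other scalings and filters keeping it. In males Thbs3 stood at 10.13, 10.04 and 11.89 CPM in KO libraries, against 13.2, 9.89 and 18.0 CPM in Het libraries, and these values overlapped. The male change did not pass (log2 fold change -0.35, 95% interval -0.84 to 0.13, edgeR adjusted p = 0.593). Of the exonic bases of Thbs3, 6.59% overlap Mtx1 on the opposite strand, and unstranded counting leaves out fragments that touch both genes.

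Thbs4, the tendon and muscle thrombospondin (ENSMUSG00000021702, chromosome 13, 92751590 to 92794818), passed the test in neither sex. Its values were 27.8, 17.9 and 37.2 CPM in female KO libraries, against 18.93, 15.02 and 16.55 CPM in female Het libraries, and at 36.35, 28.01 and 41.04 CPM in male KO libraries, against 37.3, 34.0 and 40.5 CPM in male Het libraries. Female KO178 lay within the Het range and the other 2 female KO libraries lay above it. The female change was 0.71 on the log2 scale (95% interval 0.21 to 1.22, edgeR adjusted p = 0.142) and passed without KO178 (0.95, adjusted p = 0.0418) and without a filter on low counts (adjusted p = 0.00793). The male change was -0.08 (interval -0.44 to 0.28, edgeR adjusted p = 0.900).

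Spock3, testican-3 (ENSMUSG00000054162, chromosome 8, 62951009 to 63357103), was lower in KO libraries mainly in females. It stood at 2.92, 4.99 and 2.92 CPM in female KO libraries, against 20.3, 18.5 and 13.9 CPM in female Het libraries. Among male libraries it had 51.2, 50.9 and 28.8 CPM in KO libraries, against 67.0, 54.2 and 51.5 CPM in Het libraries. The female groups lay far apart, while in males 2 KO libraries lay just under the lowest Het library and only KO255 stood clearly below. The fitted difference was 4.90-fold in females (log2 fold change -2.29 ± 0.259, SE) and 1.32-fold in males (-0.40 ± 0.202), and -0.17 in males without KO255. The female change exceeded the male change by -1.89 ± 0.340 on the log2 scale for Spock3 and by -1.26 ± 0.283 for Thbs2, both given as descriptions because they rest on the values that chose these genes.

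Spock1, testican-1 (ENSMUSG00000056222, chromosome 13, 57421195 to 57908332), had large point differences in the same direction and passed in neither sex with edgeR, the filter and all libraries. It stood at 0.431, 2.20 and 0.168 CPM in female KO libraries, from 9, 37 and 3 counts, against 1.17, 9.18 and 8.46 CPM in female Het libraries, from 22, 190 and 160 counts. Female Hetz164 lay within the KO range, which made the groups overlap. The female log2 fold change was -2.79 (95% interval -5.30 to -0.29, edgeR adjusted p = 0.238), and it was -3.29 without Hetz164 (adjusted p = 0.0536). In males Spock1 stood at 8.999, 5.133 and 11.89 CPM in KO libraries, against 13.5, 23.8 and 34.2 CPM in Het libraries. The male groups did not overlap, but the change of -1.45 (interval -2.25 to -0.66) missed the threshold (edgeR adjusted p = 0.124). It passed with DESeq2 (adjusted p = 0.000597), without a filter on low counts (3.26e-09) and without male Hetz204 (0.0338).

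Spock2, testican-2 (ENSMUSG00000058297, chromosome 10, 60106219 to 60135198), was the scarcest member over all libraries together, with 11 to 66 counts per library. It stood at 1.72, 1.37 and 1.51 CPM in female KO libraries, against 0.587, 1.16 and 0.952 CPM in female Het libraries, which did not overlap. Among male libraries it had 1.91, 2.11 and 4.38 CPM in KO libraries, against 3.003, 1.405 and 2.213 CPM in Het libraries. Neither change passed, at 0.77 in females (95% interval -0.08 to 1.61, edgeR adjusted p = 0.326) and 0.37 in males (interval -0.50 to 1.25, edgeR adjusted p = 0.783). The intervals are wide, and the part of the low counts in this was not tested.

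Sparc (ENSMUSG00000018593, chromosome 11, 55394500 to 55423183) was the most abundant member and did not differ detectably by genotype. It stood at 1400, 1646 and 1233 CPM in female KO libraries, against 1030, 1867 and 1163 CPM in female Het libraries. Among male libraries it had 973, 595 and 829 CPM in KO libraries, against 341, 1047 and 584 CPM in Het libraries. KO and Het values overlapped in both sexes, and the male Het libraries spread from the lowest to the highest male value. The log2 fold change was 0.07 in females (95% interval -0.40 to 0.54, edgeR adjusted p = 0.895) and 0.29 in males (interval -0.66 to 1.24, edgeR adjusted p = 0.842).

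Counted over the 6 members other than Thbs2 and Spock3, 1 was lower and 0 were higher in female KO libraries with edgeR, where 2.27% of all 14036 genes tested passed (1.29% higher and 0.983% lower), and Thbs3 was that gene. Their median log2 fold change was 0.07, against 0.00 for all genes tested. In males 0 of 6 passed with edgeR, where 0.861% of 13361 genes passed (0.704% higher and 0.157% lower). Of these 6, 1 had an unadjusted p under 0.05, and DESeq2 called 1 and limma voom 0. The KO and Het libraries of 2 of the 6 did not overlap in females and those of 1 of 6 in males, which held for 22.3% (12.1% higher and 10.1% lower) of all genes tested in females and 17.2% (9.39% higher and 7.8% lower) in males. An exact two-sided permutation test of the CPM values gave p = 0.1, the smallest that 3 against 3 libraries allow, for Thbs3 and Spock2 in females and for Spock1 in males. Averaged over the sexes in 1 fit of all 12 libraries, Thbs3 was lower in KO (log2 fold change -0.63 ± 0.138, SE, edgeR adjusted p = 0.0156), where 3.41% of 14772 genes passed (2.15% higher and 1.27% lower), and the call was lost without male Hetz249 (0.0588) or male KO240 (0.0531). Spock1 averaged -2.13 ± 0.594 (SE) and missed the threshold (edgeR adjusted p = 0.0972), but passed with DESeq2 (0.0267) and without female Hetz164 (0.0248) or female KO178 (0.0364).

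The test of whether the change differed between females and males passed for 0 of the 6 members with edgeR (1 at an unadjusted p under 0.05, 0 with DESeq2 and 0 with limma voom), where 0.00677% of all genes passed (0.00677% higher and 0.0% lower). That 1 was Thbs4, whose change was higher in females by 0.80 on the log2 scale (95% interval 0.17 to 1.43, edgeR adjusted p = 0.303). For Thbs3 the female change was lower by -0.54 (interval -1.12 to 0.05, edgeR adjusted p = 0.447). Spock1 had the widest interval, -4.01 to 1.33, so a difference between the sexes could not be detected there.

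**Figure D2:**
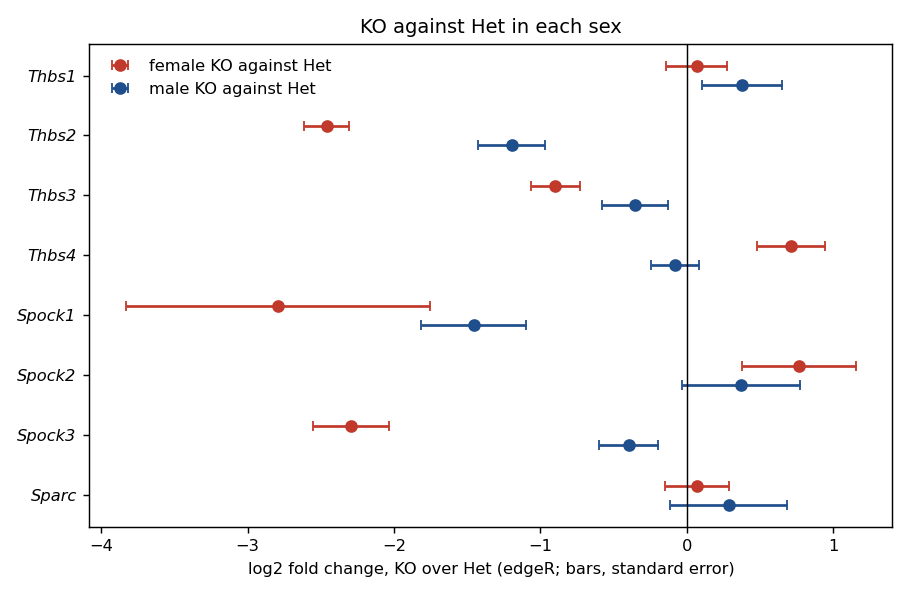
Log2 fold change of KO over Het from edgeR for the 8 genes in females (red, upper point of each pair) and males (blue, lower point), with the standard error as bars. Thbs2 and Spock3, the genes that led to the choice of the family, lie at -2.46 and -2.29 in females and at -1.20 and -0.40 in males, and Spock1 in females has the widest bar.

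Levels of the members can be compared with each other only per length, so CPM was divided by the exonic length in kilobases. Sparc led in all 4 groups, at 377 ± 54.8 CPM per kb in female KO, 357 ± 119 in female Het, 211 ± 50.4 in male KO and 174 ± 94.6 in male Het libraries. The next places differed by group. In female KO libraries Thbs1 (79.2 ± 15.4 CPM per kb) was followed by Thbs4 (8.40 ± 2.94) and Thbs2 (6.20 ± 0.876), whose ranges overlapped, and in female Het libraries Thbs1 (75.2 ± 19.9) was followed by Thbs2 (34.1 ± 2.55). In male KO libraries Thbs2 (39.4 ± 5.62) and Thbs1 (39.2 ± 12.1) could not be separated, and in male Het libraries Thbs2 (90.5 ± 33.4) exceeded Thbs1 (30.3 ± 9.78) in 3 of 3 libraries, and its range overlapped that of Sparc. Lower down, neighbours with overlapping ranges were Spock2 and Spock1 in female KO, Thbs4 and Thbs3 as well as Spock1 and Spock2 in female Het, Spock1 and Spock2 in male KO, and Thbs4 and Spock3 as well as Spock1 and Thbs3 in male Het libraries. The order was the same on the TPM scale in all 32 places (8 members in 4 groups).

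The makeup of the thrombospondin family differed between the groups. As a share of the summed CPM per kb of Thbs1 to Thbs4, Thbs2 made up 5.01 to 8.39% in female KO and 24.5 to 36.7% in female Het libraries. In males it made up 40.6 to 47.7% in KO and 56.5 to 74.1% in Het libraries. Thbs1 made up 77.6 to 86.3% in female KO, 53.9 to 68.5% in female Het, 37.1 to 45.6% in male KO and 16.7 to 33.3% in male Het libraries. These shares rest on the Thbs2 values that chose the family, so they are a description. Among the SPOCK genes, Spock3 made up 57.1 to 62.2% in female KO, 66.0 to 93.2% in female Het, 68.3 to 89.4% in male KO and 65.5 to 83.7% in male Het libraries, and Spock2 made up 18.5 to 36.8% in female KO, 2.95 to 4.94% in female Het, 3.49 to 11.35% in male KO and 2.10 to 4.10% in male Het libraries. The SPOCK shares rest on the Spock3 values that chose the family and are a description too, and Spock2 itself did not pass in either sex.

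**Figure D3:**
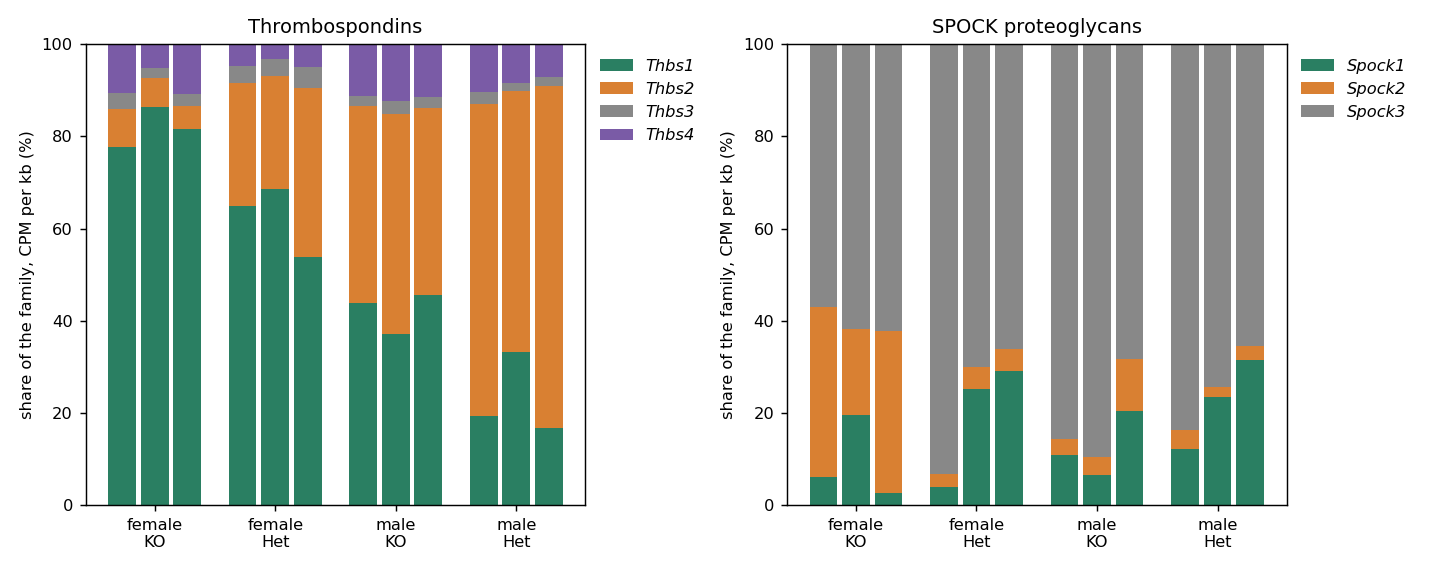
Share of each gene in the summed CPM per kb of the 4 thrombospondins (left) and the 3 SPOCK genes (right), 1 bar per library in the 4 groups. Thbs2 takes 5.01 to 8.39% of the thrombospondin signal in female KO and 56.5 to 74.1% in male Het libraries.

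Among the 6 members other than Thbs2 and Spock3, Thbs1 and Thbs3 were higher and Thbs4 was lower in female than in male Het libraries. Thbs4 was 2.21-fold lower (log2 fold change -1.15 ± 0.215, SE, edgeR adjusted p = 0.00314) and Thbs1 2.485-fold higher (1.31 ± 0.276, edgeR adjusted p = 0.00886). These 2 calls held under every alternative run. Thbs3 was 1.63-fold higher in females (edgeR adjusted p = 0.0266), and that call was lost without any of female Hetz164, Hetz165 or Hetz181 or male Hetz204 or Hetz245 (adjusted p 0.0506 to 0.112). Sparc (log2 fold change 1.04, edgeR adjusted p = 0.0877), Spock2 (-1.28, adjusted p = 0.0583) and Spock1 (-1.93, adjusted p = 0.147) did not pass with all libraries in edgeR. Sparc and Spock1 passed with limma voom (0.0272 and 0.0154), Sparc without male Hetz245 (0.00581), and Spock2 with DESeq2 (0.0382), without a filter (0.0499) and without male Hetz245 (0.0423) or male KO255 (0.0391). In this comparison 10.2% of 14772 genes passed (4.72% higher and 5.44% lower), and 3 of the 6 members other than Thbs2 and Spock3. Thbs2 was 2.66-fold lower (log2 fold change -1.41 ± 0.202, SE) and Spock3 3.28-fold lower (-1.71 ± 0.232) in female than in male Het libraries, given without a test because these Het values took part in the choice of the family. The tables were counted separately, so these differences belong to sex and table together.

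Between KO libraries of the sexes, 2 of the 6 passed with edgeR, where 20.4% of all genes did (9.31% higher and 11.1% lower). At an unadjusted p under 0.05 there were 4, and DESeq2 and limma voom each called 2. Sparc did not pass with all libraries (log2 fold change 0.84, edgeR adjusted p = 0.119) but passed without male Hetz204 (0.0332) or male Hetz245 (0.0321). Spock2 did not pass (-0.87, edgeR adjusted p = 0.128). Thbs1 was 2.02-fold higher in female KO than in male KO libraries (edgeR adjusted p = 0.0185), a call lost without female KO178 (0.0614), female KO188 (0.0574) or male KO247 (0.0609). Spock1 was lower in female KO, by a log2 fold change of -3.27 with an interval of -5.34 to -1.20 (edgeR adjusted p = 0.0341), a call lost without a filter on low counts (0.0982) and without female KO166 (0.111), female KO188 (0.0996), male Hetz245 (0.0542) or male KO240 (0.0813), KO247 (0.0502) or KO255 (0.102). Thbs2 was 6.35-fold and Spock3 12.2-fold lower in female KO than in male KO libraries, given without a test for the same reason.

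**Figure D4:**
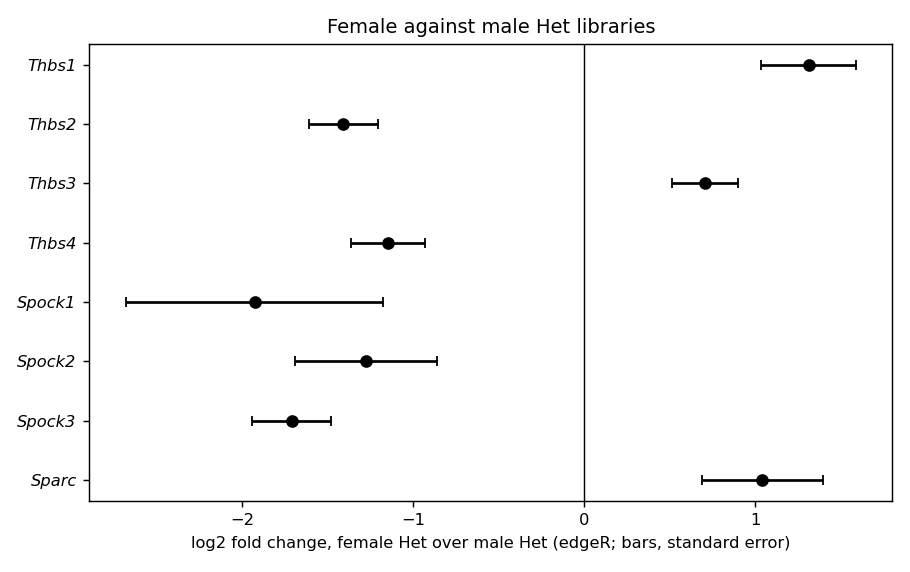
Log2 fold change of female Het over male Het libraries from edgeR with its standard error for the 8 genes. Thbs1 (1.31), Sparc (1.04) and Thbs3 (0.71) lie above 0. Spock1 (-1.93), Spock3 (-1.71), Thbs2 (-1.41), Spock2 (-1.28) and Thbs4 (-1.15) lie below 0. Sparc, Spock1 and Spock2 did not pass with all libraries in edgeR.

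Over the lists of relatives and partners of these proteins, 1 gene passed with edgeR in females and 2 passed in males. Of all genes tested, 2.27% passed in females and 0.861% in males, and the numbers tested are given per list. Of 5 further family relatives (Comp, the thrombospondin of cartilage, and the SPARC relatives Sparcl1, Smoc1, Smoc2 and Fstl1) 0 passed in either sex with edgeR (1 at an unadjusted p under 0.05 in each sex, DESeq2 calling 0 in females and 1 in males, limma voom 0 in each). Those with the smallest p were Fstl1 in females, at 452 ± 48.4 CPM in KO and 607 ± 50.5 CPM in Het libraries (edgeR adjusted p = 0.152), and Smoc1 in males, at 11.4 ± 1.09 CPM in KO and 6.66 ± 1.10 CPM in Het libraries (edgeR adjusted p = 0.128). Smoc1 in females (edgeR adjusted p = 0.308) and Fstl1 in males (edgeR adjusted p = 0.414) came next. The list's median log2 fold change was -0.13 in females and 0.14 in males, against 0.00 and 0.01 for all genes tested.

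Among receptors of thrombospondins and SPARC, 1 of 15 tested members rose and 1 fell in male KO libraries, where 0.704% of all genes were called higher and 0.157% lower. Cd47, the receptor that binds the carboxy end of THBS1, rose 1.74-fold, at 126 ± 25.8 CPM in male KO and 73.0 ± 0.994 CPM in male Het libraries (edgeR adjusted p = 0.0296). Sdc1, the heparan sulfate proteoglycan syndecan-1, fell 1.71-fold, at 28.2 ± 0.660 CPM in male KO and 48.3 ± 7.98 CPM in male Het libraries (edgeR adjusted p = 0.0296). Without male Hetz204, Hetz245 or Hetz249 or male KO240 both calls were lost (adjusted p 0.118 to 0.193 for Cd47 and 0.0702 to 0.2045 for Sdc1), and Cd47 also in 1 fit of all 12 libraries (0.0518). In females 0 of 16 passed with edgeR (5 at an unadjusted p under 0.05, DESeq2 calling 3 and limma voom 0), with Sdc1 at 34.3 ± 1.31 CPM in KO and 48.5 ± 6.11 CPM in Het libraries (edgeR adjusted p = 0.103) and Sdc4, syndecan-4, at 4849 ± 902 and 7221 ± 821 CPM in KO and Het libraries (edgeR adjusted p = 0.122). Cd47 was also higher on average in female KO, at 167 ± 33.8 CPM against 114 ± 23.1 CPM in female Het libraries (edgeR adjusted p = 0.1505). The receptor list had a median of 0.07 in females and 0.15 in males.

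Among 16 other matricellular proteins 1 fell in female KO libraries, where 0.983% of all genes were called lower. It was Tgfbi, a secreted protein induced by TGF-beta that binds collagens and integrins. It stood at 8.56 ± 2.03 CPM in female KO and 22.4 ± 6.86 CPM in female Het libraries, 2.62-fold lower (edgeR adjusted p = 0.0101), and the call was lost without female KO188 (0.0506) and in 1 fit of all 12 libraries (0.06225). Male Tgfbi was 1.72-fold lower in KO without passing, at 10.3 ± 4.84 CPM in KO and 17.7 ± 7.83 CPM in Het libraries (edgeR adjusted p = 0.488). In males 0 of 16 passed with edgeR (2 at an unadjusted p under 0.05, DESeq2 calling 1 and limma voom 0). Those with the smallest p were Ccn1, a heparin-binding protein of the CCN family, at 3355 ± 317 CPM in male KO and 1966 ± 450 CPM in male Het libraries (edgeR adjusted p = 0.0651, with DESeq2 0.00195), and Ccn4 (edgeR adjusted p = 0.168). The list's median was 0.04 in females and 0.11 in males. Of 10 tested proteases that act on these proteins or that they restrain, 0 passed in either sex with edgeR (1 in females and 2 in males at an unadjusted p under 0.05, DESeq2 calling 0 in females and 1 in males, limma voom 0 in each), and the medians were -0.04 in females and -0.07 in males. Adamts1, a protease with thrombospondin repeats that cleaves THBS1, stood at 379 ± 65.0 CPM in female KO and 481 ± 45.7 CPM in female Het libraries (edgeR adjusted p = 0.276), and at 454 ± 79.4 CPM in male KO and 684 ± 66.1 CPM in male Het libraries (edgeR adjusted p = 0.118, with DESeq2 0.0145). Mmp14 in females (edgeR adjusted p = 0.327) and Bmp1 in males (edgeR adjusted p = 0.265) came next.

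Over the 12 libraries, the genes whose log2 CPM followed Thbs2 most closely among 11421 genes with a mean log2 CPM of at least 1 were Rgs4 (Pearson r = 0.976), Timp3 (0.966), Man1a (0.965), Lmcd1 (0.964) and Serping1 (0.962). Those closest to Spock3 were Neu2 (0.972), Tmem38b (0.972), Clstn3 (0.971), Rgs4 (0.969) and Napa (0.963). All of these points share the 4 groups and rest on the values that chose the family, so the likeness is given as a description. The genes were picked for this likeness, so a shared order of group means follows largely from the choice and is no separate result. Rgs4, which damps G protein signals and is on both lists, stood at 28.5 CPM in female KO, 94.3 in female Het, 139 in male KO and 188.4 in male Het libraries on average. Timp3, an inhibitor of metalloproteinases, stood at 88.3, 237, 241 and 351 CPM on average in female KO, female Het, male KO and male Het libraries, an order that Thbs2 shares. Neu2, a cytosolic sialidase, stood at 61.9 CPM in female KO, 197 in female Het, 421 in male KO and 581 in male Het libraries on average, an order that Spock3 shares.

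Marker lists of satellite cells, of other cells and of early response genes were summed beside these results. In females, where Thbs2, Thbs3 and Spock3 were lower in KO libraries, the 12 satellite cell markers summed to 9715 to 12110 CPM in KO and 13780 to 15050 CPM in Het libraries, and the 15 immediate early genes to 10850 to 10990 CPM in KO and 13840 to 16860 CPM in Het libraries. Much of the satellite cell sum was Sdc4, also on the receptor list, at 4849 ± 902 CPM in female KO and 7221 ± 821 CPM in female Het libraries (edgeR adjusted p = 0.122). Pax7 stood at 12.45 ± 0.434 and 12.91 ± 2.38 CPM in female KO and Het libraries. Itga7 was higher on average in female KO (521 against 462 CPM), while Myf5 (1032 against 1387), Vcam1 (1438 against 2018) and Calcr (86.0 against 127 CPM) were lower. The 12 leukocyte and macrophage markers summed to 34.8 to 54.8 CPM in female KO and 87.4 to 120 CPM in female Het libraries, beside the fall of Tgfbi, and of 11 tested 2 were lower. Of 12 satellite cell markers tested 1 was lower in female KO, and of 15 immediate early genes 3, where 0.983% of all genes were called lower. Their part in these results was not tested. Fibro-adipogenic progenitor markers (14 genes, 4575 to 5327 CPM in female KO and 4864 to 7413 CPM in female Het libraries) and tenocyte markers (9 genes, 79.5 to 104 CPM and 86.7 to 101 CPM) overlapped between female KO and Het libraries. In males the satellite cell sum was 19490 to 20980 CPM in KO and 17910 to 21190 CPM in Het libraries. The male tenocyte sum was 119 to 130 CPM in KO and 132 to 141 CPM in Het libraries and did not overlap. Of single genes tested in males, 17.2% did not overlap either, and of 8 tenocyte markers tested in males 0 were called. The part of the tenocyte sum in the lower male Thbs2 and Spock3 was not tested. The fibro-adipogenic, leukocyte and immediate early sums overlapped between male KO and Het libraries. Platelet markers, relevant to Thbs1, which platelets store, summed to 4.43 to 12.4 CPM over all libraries. No listed marker was at 0 counts in all libraries.

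Endothelial markers (12 genes) summed to 126 to 155 CPM in female KO and 112 to 131 CPM in female Het libraries, and to 182 to 416 CPM in male KO and 272 to 300 CPM in male Het libraries. Pericyte and smooth muscle markers (10 genes) summed to 578 to 633 CPM in female KO, 398 to 669 in female Het, 400 to 496 in male KO and 341 to 477 in male Het libraries. Schwann cell and glial markers (9 genes) summed to 163 to 190 CPM in female KO, 146 to 236 in female Het, 223 to 354 in male KO and 232 to 245.1 in male Het libraries. Myofibre markers (10 genes) summed to 139 to 693 CPM in female KO, 127 to 365 in female Het, 51.3 to 147 in male KO and 53.3 to 68.3 in male Het libraries. KO and Het libraries of the same sex overlapped in each of these 4 sums. Of 8 Schwann cell and glial markers tested in females 1 was lower in KO, where 0.983% of all genes were called lower, and in males 0 were called. The endothelial, pericyte and myofibre lists had 0 called in either sex.

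**Figure D5:**
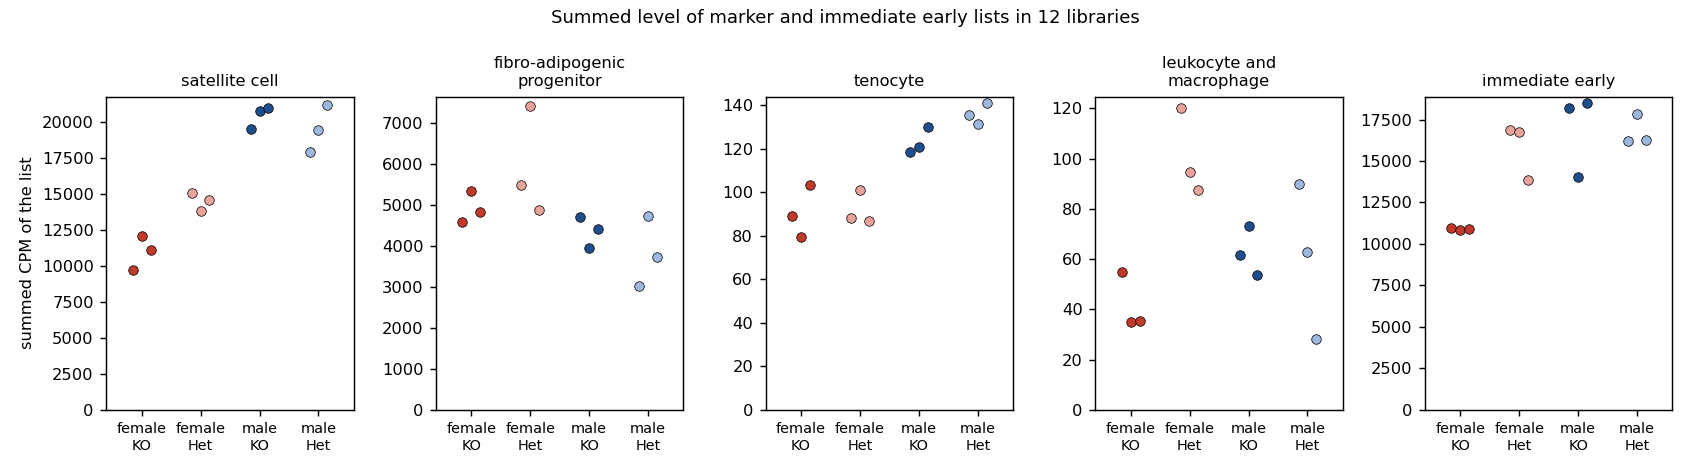
Summed CPM of 5 lists (satellite cell, fibro-adipogenic progenitor, tenocyte, leukocyte and macrophage, immediate early) in each library (points), by group, on linear axes that start at 0. The satellite cell sum lies lowest in female KO libraries, at 9715 to 12110 CPM, and the immediate early and leukocyte sums of female KO lie below those of female Het libraries.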

How the data were processed

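Both deposited tables hold whole counts of read pairs over the exons of each gene, and no estimated count was rounded. The file headers name featureCounts 2.0.0 in paired mode and the Ensembl GRCm38 annotation, release 99. Their commands set no strand option and do not ask for reads that map or overlap more than once. The submitters' processing notes list STAR, Subread, DESeq2 and mm10 without versions. Per the labels, cDNA was made by Smart-Seq2, a full-length method that by itself adds no molecular identifiers. The tables held 0 columns of other samples. Of 55385 genes 55144 took a symbol by identifier from GENCODE M21 names.

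CPM used TMM factors over all 12 libraries. Tests were edgeR 4.0.16 quasi-likelihood F tests in R 4.3.3 (TMM, filterByExpr with a minimum count of 10, robust), fitted over all genes with p-values adjusted by Benjamini-Hochberg (threshold 0.05), from 6 libraries within a sex and from all 12 with 4 group means otherwise. Standard errors and 95% intervals come from the F statistic. Likeness used log2(CPM + 0.5). Alternatives were DESeq2 1.42.0, limma 3.58.1 voom, upper-quartile scaling, no filter, 1 CPM in 3 libraries, 1 fit of all libraries, and leaving out each library. The fit was also run on counts simulated from its own model for the female KO and Het comparison only, which does not check the other fits. Named were the 8 members, the called members of each related list (up to 4 a direction, or the 2 with the smallest p), the 5 genes most like Thbs2 and Spock3, Keap1 and Nqo1. Pdgfra, Dcn, Scx, Pax7, Myf5, Vcam1, Itga7 and Calcr were named as defining markers. The members and lists were chosen with earlier results of these data known.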

Additional observations from a re-analysis of the deposited data

How the results depend on the processing

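Of the 6 members other than Thbs2 and Spock3, the count called in females was 1 and became 2 without a filter on low counts and 0 to 1 with 1 library left out; in males it was 0 and became 1 with DESeq2, 1 without a filter and 0 to 1 with 1 library left out. For the average over the sexes it was 1, 2 with DESeq2 and 0 to 2 with 1 library left out; for female against male Het it was 3, 5 with limma voom (Sparc and Spock1 added) and 2 to 4 with 1 library left out; for female against male KO it was 2, 1 without a filter and 0 to 3 with 1 library left out; and for the difference of changes it stayed 0. Related genes called in females numbered 1, against 5 with DESeq2, 7 without a filter, 0 in 1 fit of all libraries and 0 to 7 with 1 library left out (7 without Hetz165), and in males 2, against 5 with DESeq2, 5 without a filter and 0 to 6 with 1 library left out. Changes of sign were limited to values that had not passed, when 1 library was left out: Thbs1 in females (-0.13 to 0.27), Sparc in females (-0.10 to 0.38), in males (-0.036 to 0.79) and in the difference of changes (-0.71 to 0.10), Thbs4 in males (-0.21 to 0.064) and Spock2 in males (-0.12 to 0.63). The cause of these changes was not tested. Over all genes, edgeR called 319 in females and 115 in males, DESeq2 723 and 280, and the unfiltered fit 1000 and 375. Counts were low for Spock2, at 11 to 66 per library, and for Spock1 in female KO, at 3 to 37, and the part of depth in their wide intervals was not tested. No paired analysis was possible because every library has a number of its own and no numbers are shared between groups.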
